A study of Homo sapiens with 6 samples.

Results

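Mitochondrial ribosomal protein genes were taken as all genes of the deposited count table whose symbol is MRPL or MRPS followed by a number and, where present, a letter from A to C. The rule found 78 of the 58735 genes in the table, and it used names only, not expression. Of these, 51 encode proteins of the large subunit and 26 proteins of the small subunit. The remaining gene, MRPS36, carries the family name but encodes a component of the 2-oxoglutarate dehydrogenase complex. Of the 78 genes, 77 had enough counts to be tested and MRPS24 did not.

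The mitochondrial ribosome is built in the mitochondrial matrix from ribosomal RNAs transcribed from the mitochondrial genome and from proteins that are all encoded in the nucleus, made in the cytosol and imported. Its products are the core membrane subunits of the respiratory chain and of ATP synthase. Some of its proteins descend from bacterial ribosomal proteins, and others are found only in mitochondria. In the current nomenclature, names that begin with u or b mark bacterial homologues and names that begin with m mark mitochondria-specific proteins.

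The libraries came from human cells given as BE(2)-C, a neuroblastoma line, grown in DMEM with calf serum. Both groups had been infected with lentivirus and kept as stable lines under puromycin. One group carried a non-silencing short hairpin RNA (NS, 3 libraries) and the other a hairpin against ACSS2 (shACSS2, 3 libraries), the acetyl-CoA synthetase of nucleus and cytosol. The titles write the second group as siACSS2, and 1 passage of the treatment text calls that line shNgBR, so the groups here follow the titles. Whether the replicate libraries stem from separate cultures or infections is not stated. The p-values therefore describe the spread between these libraries alone, and that spread may be technical.

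Library totals ran from 16617885 to 20831599 counts. ACSS2 itself was measured at 20.8, 20.4 and 20.2 CPM (read counts scaled to library depth) in NS 1 to 3 and at 4.67, 5.14 and 6.16 CPM in shACSS2 1 to 3. Its log2 fold change was -1.94 (SE 0.145, adjusted p = 1.95e-06, edgeR quasi-likelihood test with Benjamini-Hochberg adjustment). An exact two-sided permutation test gave p = 0.1, the smallest that 3 against 3 libraries allow. Among markers of adrenergic neuroblastoma, PHOX2A, TFAP2B and TH had 0 counts in all libraries, which allows up to 0.0277 CPM over all libraries. DBH stayed under 1 CPM, and MYCN, which this line is known to carry in many copies, did not exceed 2.12 CPM. The adrenergic list summed to 40.8 to 45.8 CPM in NS and 41.2 to 48.7 CPM in shACSS2, while the list for mesenchymal, blood and vessel cells summed to 29.2 to 33.8 CPM and 27.4 to 39.3 CPM. GATA3 (19.0 to 23.1 CPM) and ISL1 (12.3 to 19.5 CPM) made up most of the adrenergic sum. In the other list the blood and the vessel marker did not exceed 0.096 and 0.159 CPM, so its sum was almost wholly mesenchymal. These marker levels are CPM over library totals. Of 6 adrenergic markers with enough counts for the test, ISL1 rose by 0.51 on the log2 scale, while CHGA fell by 1.68, MYCN by 1.14 and CHGB by 1.03, with a median of -0.47 over the 6. The edgeR adjusted p was 0.0138 for ISL1, 0.00798 for CHGA, 0.0448 for MYCN and 0.0366 for CHGB, after Benjamini-Hochberg adjustment. The call of MYCN ended without any 1 library (adjusted p up to 0.131), that of CHGB without NS 1, NS 3, shACSS2 1 or shACSS2 3 (up to 0.129) and that of ISL1 without NS 1, NS 3 or shACSS2 3 (up to 0.0955). The part of these marker differences in the members' values was not tested. The cells are named here as the labels name them, although defining markers of that cell type were absent.

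Mitochondrial ribosomal protein genes were mostly higher in shACSS2, and the differences were small. These are bulk libraries, in which more cells with a transcript and more transcript per cell cannot be told apart. A total of 22 of the 77 tested genes (28.6%) rose, none fell and 55 did not pass the test. Among all 16210 genes tested, 7.48% rose and 9.64% fell by the same test (edgeR quasi-likelihood, threshold 0.05 after Benjamini-Hochberg adjustment). By unadjusted p at the same threshold, 47 members were higher, beside 15.9% of all genes, and 1 was lower, beside 16.8%. DESeq2 called 30 higher, beside 8.78% of all genes, and 1 lower, beside 9.73%. The median log2 fold change of the members was 0.28, a 1.21-fold difference, beside 0.00 over all genes tested. The log2 fold change was above 0 for 72 members and below 0 for 5, whereas 50.3% of all genes tested were above 0. The members that rose ranged from 1.23-fold to 1.77-fold. In 40 members every shACSS2 library lay above every NS library, which was so for 17.6% of all genes tested, and in 1 member, MRPL4, every shACSS2 library lay below, which was so for 18.7%.

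**Figure D1:**
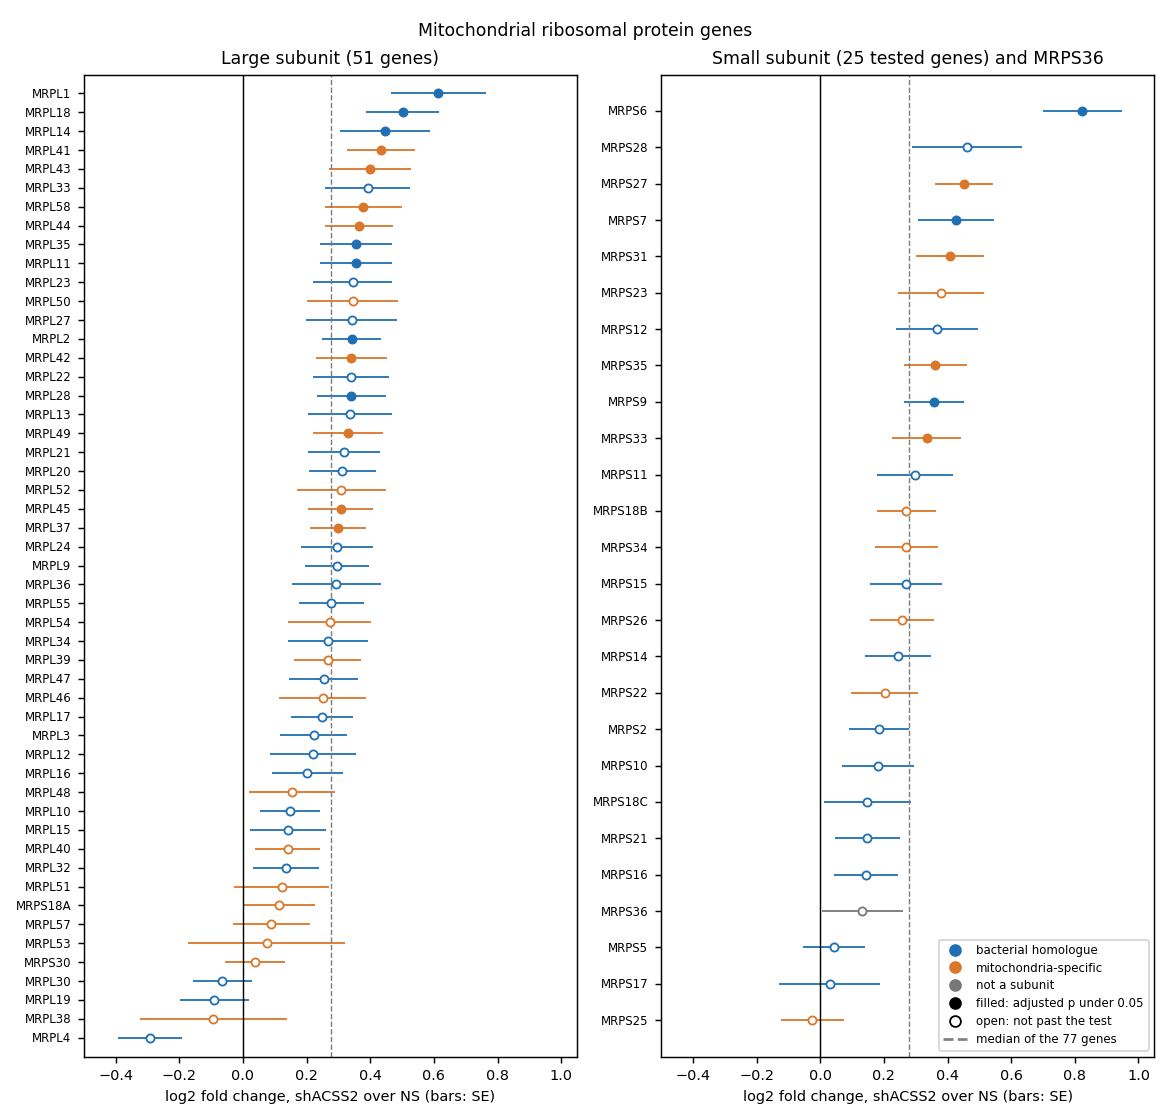
Log2 fold change of shACSS2 over NS for each tested member (points, with bars for the standard error), ordered by size in 1 panel for the large and 1 for the small subunit. Colour separates bacterial homologues from mitochondria-specific proteins, filled points passed the edgeR test, and the dashed line is the median of the 77 genes. The points run from -0.29 for MRPL4 to 0.82 for MRPS6, and 72 of the 77 lie above 0.

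The number of members that passed rested on single libraries and on the scaling. Without NS 1 or without NS 3 only MRPS6 and MRPS27 rose, and the share of all genes that rose was 1.87% and 2.2%. The members' count was 29 without NS 2 (6.85% of all genes), 23 without shACSS2 1 (11%), 10 without shACSS2 2 (4.8%) and 13 without shACSS2 3 (4.99%). Scaling by library totals in place of TMM, a scaling that allows for a changed composition of the library, left 8 members higher and 1 lower, beside 4.53% and 13% of all genes. The members' median stayed between 0.20 and 0.35 on the log2 scale in these settings and 0.21 with library totals. MRPS6 and MRPS27 kept their call in all 18 alternatives that were run, and MRPL18 in 16 of them. No member that rose had a fold change below 0 in any of them, but this was largely fixed in advance. In all 22, every shACSS2 library lay above every NS library, so leaving out 1 library could hardly turn the sign.

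The libraries of a group were spread in the same order for many members. Summed over the 77 tested members, NS 1, 2 and 3 held 5557, 6102 and 5013 CPM, and shACSS2 1, 2 and 3 held 7039, 6654 and 6345 CPM. The lowest shACSS2 sum was above the highest NS sum. The means were 5557 ± 544 CPM and 6679 ± 347 CPM (SD, n = 3), a ratio of 1.20, and the ratio was 1.14 when CPM were taken over library totals. NS 3 was the lowest library of its group for 57 of the 77 members and NS 2 the highest for 67, while shACSS2 1 was the highest of its group for 52 and shACSS2 3 the lowest for 46. Members thus shared much of their spread within a group, and they are not independent of each other. Across all genes, the deviations of a library from its group's mean followed GC content in opposite directions in the shACSS2 libraries, with Spearman's rho of -0.60 in shACSS2 1 and 0.47 and 0.39 in shACSS2 2 and 3. The opposite signs are partly set by the calculation, because each deviation is taken from the mean of the same 3 libraries. After correction for GC content and gene length, 25 members rose beside 13.8% of all genes, with a median log2 fold change of 0.20.

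**Figure D2:**
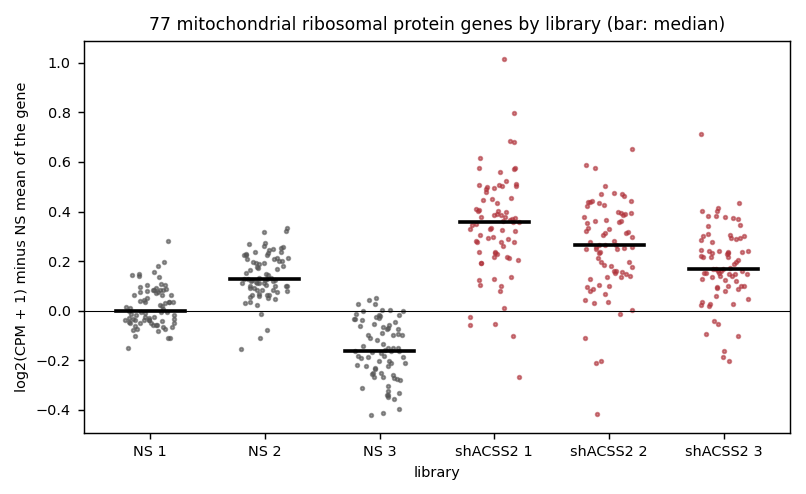
Difference of each tested member from its mean in NS, in log2 units, by library, with the median marked. The medians are 0.00, 0.13 and -0.16 in NS 1 to 3 and 0.36, 0.26 and 0.17 in shACSS2 1 to 3, so every shACSS2 median lies above every NS median.

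Genes of both subunits rose, and the counts that follow stand beside 7.48% of all genes tested that rose. Of the large-subunit genes, 15 of 51 rose with a median log2 fold change of 0.29 over all 51, and of the small-subunit genes, 7 of 25 rose with a median of 0.27. The summed level of the large-subunit genes was 3503 ± 370 CPM in NS and 4181 ± 250 CPM in shACSS2 (SD, n = 3), and that of the small-subunit genes was 2030 ± 173 and 2471 ± 94.1 CPM. Among bacterial homologues 10 of 45 rose (22.2%, median 0.29), and among mitochondria-specific proteins 12 of 31 rose (38.7%, median 0.27). The share that rose was thus larger in the mitochondria-specific group while its median was not, and the difference between the groups was not tested. The central protuberance, the crown of the large subunit, had 1 of 7 genes higher (MRPL18, median 0.25). The stalk that recruits translation factors had 1 of 5 (MRPL11, median 0.22), and the proteins around the exit of the peptide tunnel had 1 of 6 (MRPL45, median 0.30). With so few genes at a site, 1 call says little about that site, and differences between sites were not tested.

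MRPS6 had the largest fold change of the family. It encodes bS6m, a protein of the platform of the small subunit, whose bacterial counterpart pairs with protein S18. The gene lies on chr21:34073224-34143034, plus strand (all gene positions are GENCODE v29 on GRCh38, found by gene identifier). It was measured at 20.2, 24.1 and 23.3 CPM in NS 1 to 3 and at 46.5, 35.8 and 37.4 CPM in shACSS2 1 to 3. The lowest shACSS2 library was well above the highest NS library. The means were 22.5 ± 2.08 and 39.9 ± 5.73 CPM (SD, n = 3), so MRPS6 rose by 0.82 on the log2 scale (SE 0.125, edgeR adjusted p = 0.000588 after Benjamini-Hochberg adjustment). Leaving out single libraries moved the log2 fold change between 0.70 and 0.90.

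The gene at the same place moved the other way. SLC5A3, the sodium-dependent myo-inositol transporter, starts within the first part of MRPS6 on the same strand (chr21:34073570-34106262), and the RefSeq start of MRPS6 is 8 bases from the start of SLC5A3. The 2 genes share 273 exon bases, 6.35% of the MRPS6 exons, and the sources used here do not say how reads from these bases were counted. SLC5A3 was measured at 71.2, 66.9 and 59.5 CPM in NS and at 60.6, 36.6 and 40.0 CPM in shACSS2. The shACSS2 1 library lay above NS 3, so the groups overlapped. SLC5A3 fell by 0.53 on the log2 scale (SE 0.152, edgeR adjusted p = 0.0277 after Benjamini-Hochberg adjustment). That call ended without NS 1, without NS 2, without shACSS2 2 and without shACSS2 3, where the adjusted p reached 0.121.

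MRPL1 encodes uL1m, the protein of the L1 stalk at the site where spent transfer RNA leaves. Its values were 15.7, 19.8 and 13.8 CPM in NS and 28.95, 24.9 and 21.5 CPM in shACSS2, with no overlap. The log2 fold change was 0.61 (SE 0.149, edgeR adjusted p = 0.0117 after Benjamini-Hochberg adjustment). MRPL18 encodes uL18m of the central protuberance, whose bacterial counterpart binds 5S ribosomal RNA. It was measured at 56.1, 63.6 and 50.9 CPM in NS and at 91.5, 74.9 and 75.2 CPM in shACSS2. Again no library of one group reached into the other, and the log2 fold change was 0.50 (SE 0.114, adjusted p = 0.00806). Both calls ended without NS 1 and without NS 3, where the adjusted p reached 0.0768 for MRPL1 and 0.0567 for MRPL18.

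MRPS27 encodes mS27, a mitochondria-specific pentatricopeptide repeat protein of the small subunit. It was measured at 202, 229 and 204 CPM in NS and at 299.9, 286 and 281 CPM in shACSS2. The spread within either group was small beside the gap between them, 212 ± 14.96 against 289 ± 9.60 CPM (SD, n = 3). MRPS27 rose by 0.45 on the log2 scale (SE 0.0919, edgeR adjusted p = 0.00426 after Benjamini-Hochberg adjustment), and the adjusted p stayed at or under 0.0473 without any single library. MRPL37, the mitochondria-specific protein mL37, had the smallest fold change among those that rose and was even tighter, with 332, 355 and 335 CPM in NS and 412, 425 and 419 CPM in shACSS2. Its log2 fold change was 0.30 (SE 0.0870, adjusted p = 0.0280). This call did not hold without NS 1, NS 3, shACSS2 2 or shACSS2 3, where the adjusted p reached 0.154.

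**Figure D3:**
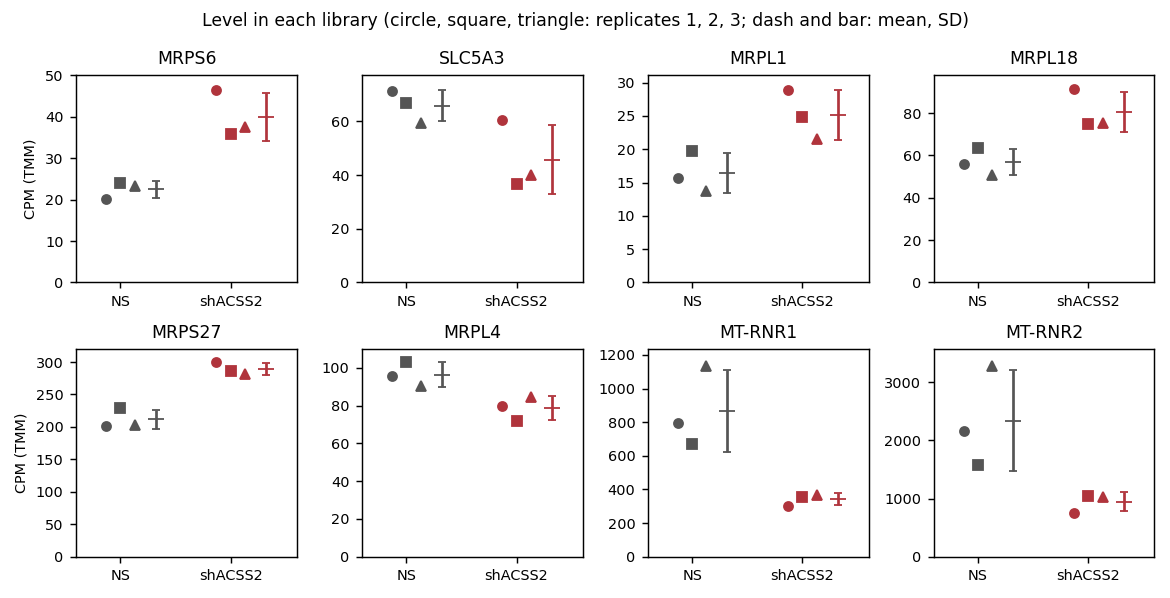
TMM-normalised CPM of MRPS6, SLC5A3, MRPL1, MRPL18, MRPS27, MRPL4 and the mitochondrial ribosomal RNA genes MT-RNR1 and MT-RNR2 in each library (points), with group means and SD. For MRPS6, MRPL1, MRPL18 and MRPS27 the 3 shACSS2 libraries lie above the 3 NS libraries, and for MRPL4, MT-RNR1 and MT-RNR2 they lie below.

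A further 8 genes made up the 12 largest rises. MRPL14 encodes uL14m on the face of the large subunit that meets the small one, where the assembly factor MALSU1 binds. It was measured at 72.9, 86.4 and 52.2 CPM in NS and at 103, 94.2 and 90.1 CPM in shACSS2, and rose by 0.45 on the log2 scale (SE 0.142, edgeR adjusted p = 0.0417 after Benjamini-Hochberg adjustment). Its NS libraries were widely spread, yet all lay under the shACSS2 libraries. MRPL41 (mL41) had 63.1, 71.9 and 55.2 CPM in NS and 86.2, 88.1 and 82.5 CPM in shACSS2, with a log2 fold change of 0.43 (SE 0.107). MRPS7 encodes uS7m, whose bacterial counterpart starts the assembly of the head of the small subunit. It had 87.0, 98.9 and 70.1 CPM in NS and 126, 111 and 107 CPM in shACSS2, a log2 fold change of 0.43 (SE 0.120). MRPS31 (mS31) and MRPS35 (mS35), both mitochondria-specific proteins of the small subunit, rose by 0.41 (SE 0.108) and 0.36 (SE 0.0990) on the log2 scale.

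The other rises in that set were of the large subunit. MRPL43 (mL43) had 69.2, 90.8 and 60.5 CPM in NS and 103, 93.2 and 94.1 CPM in shACSS2, a log2 fold change of 0.40 (SE 0.128). MRPL58, also known as ICT1, is a peptidyl-tRNA hydrolase that frees stalled ribosomes and is itself built into the large subunit, and its log2 fold change was 0.38 (SE 0.122). MRPL44 (mL44), which has a fold related to ribonuclease III, had a log2 fold change of 0.36 (SE 0.106). All 8 calls ended without NS 1 and without NS 3. Those of MRPL14, MRPL43 and MRPL58 also ended without any 1 of the shACSS2 libraries, those of MRPS7 without shACSS2 1, MRPS31 without shACSS2 2 and MRPL44 without shACSS2 3. The edgeR adjusted p in these fits reached 0.261 for MRPL14, 0.0872 for MRPL41, 0.138 for MRPS7, 0.101 for MRPS31, 0.123 for MRPS35, 0.212 for MRPL43, 0.213 for MRPL58 and 0.134 for MRPL44, after Benjamini-Hochberg adjustment.

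The remaining members that rose were MRPS9, MRPL35, MRPL11, MRPL2, MRPL42, MRPL28, MRPS33, MRPL49 and MRPL45, with log2 fold changes from 0.31 for MRPL45 to 0.36 for MRPS9. MRPS9 (uS9m), whose bacterial counterpart reaches toward the transfer RNA in the small subunit, was tight, at 53.1, 53.8 and 55.9 CPM in NS and 70.9, 67.4 and 70.5 CPM in shACSS2. MRPL45 (mL45), which anchors the ribosome to the inner membrane, was at 80.1, 90.2 and 80.0 CPM in NS and 114, 98.4 and 96.8 CPM in shACSS2. The edgeR adjusted p was 0.0174 for MRPS9 and 0.0485 for MRPL45, after Benjamini-Hochberg adjustment. The call of MRPS9 ended without NS 1, NS 3 or shACSS2 3 (adjusted p up to 0.107), and that of MRPL45 without any of these or shACSS2 2 (up to 0.204). Without NS 1 and without NS 3 the calls of all 9 ended.

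MRPL4 was the one member on the other side whose groups did not overlap. It encodes uL4m, which lines the tunnel through which the new peptide leaves. It was measured at 95.9, 103 and 90.3 CPM in NS and at 79.9, 72.0 and 84.5 CPM in shACSS2, or 96.5 ± 6.53 against 78.8 ± 6.31 CPM (SD, n = 3). At -0.29 (SE 0.0999) its log2 fold change missed the threshold in the edgeR test, with an adjusted p of 0.0549 after Benjamini-Hochberg adjustment. It passed with library totals (adjusted p = 0.0184), with DESeq2 (adjusted p = 0.0428) and without shACSS2 1 (edgeR adjusted p = 0.0208). The other members below 0 were MRPL38 and MRPL19 with -0.09, MRPL30 with -0.07 and MRPS25 with -0.02, each under 1 standard error from 0. MRPL38 changed sign without NS 1, and MRPS25 without NS 1 or without shACSS2 1.

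Of the 77 tested members, 55 did not pass, and 19 of the 77 had an adjusted p between 0.05 and 0.1. Beside them stand 8.63% of all genes tested with an adjusted p in that range. MRPL4, which lay below 0, was among the 19. Without a call, 18 of the 77 had groups that did not overlap with shACSS2 above, beside 10.2% of all genes tested. The standard error of a member's log2 fold change had a median of 0.113, beside the members' median log2 fold change of 0.28. MRPS34 (mS34) at 187 ± 18.0 CPM in NS and 225 ± 11.3 CPM in shACSS2, with a log2 fold change of 0.27 (SE 0.0979), and MRPS26 at 92.6 ± 10.2 and 111 ± 4.07 CPM, with 0.26 (SE 0.102), were such cases. MRPS28 (bS1m) had the largest difference of these, with 11.04, 9.30 and 6.82 CPM in NS, 11.1, 13.8 and 12.4 CPM in shACSS2 and a log2 fold change of 0.46 (SE 0.174). Its NS 1 and shACSS2 1 libraries were nearly level. MRPL12 (bL12m), the stalk protein that recruits translation factors, had a log2 fold change of 0.22 (SE 0.136). MRPS36, which is not a ribosomal protein, had 0.13 (SE 0.128).

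Proteins MRPS18A, MRPS18B and MRPS18C all derive from bacterial S18 but sit at different places. MRPS18C (bS18m) holds the ancestral site in the small subunit next to MRPS6, MRPS18B (mS40) is elsewhere in the small subunit, and MRPS18A (mL66) belongs to the large subunit. MRPS18B was at 113, 121 and 108 CPM in NS and at 139.8, 139 and 134 CPM in shACSS2, with groups that did not overlap. Its log2 fold change was 0.27 (SE 0.0916), just short of the threshold in edgeR with an adjusted p of 0.0526 after Benjamini-Hochberg adjustment, and DESeq2 gave 0.0293. MRPS18A stood at 0.11 (SE 0.113) and MRPS18C, the neighbour of MRPS6 in the ribosome, at 0.15 (SE 0.136) on the log2 scale, both with overlapping groups. Per kilobase of exon in NS, MRPS18B was at 60.3 ± 3.41, MRPS18A at 20.9 ± 0.732 and MRPS18C at 2.67 ± 0.272 CPM per kb (SD, n = 3).

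The members' levels covered a wide range although their proteins occur in the ribosome mostly as single copies. Per kilobase of annotated exon in NS, the median over the 77 tested genes was 26.7 CPM per kb. The divisor is the union of all annotated exons, such as 1097 bases for MRPS34 and 6432 for MRPL46. The part of this divisor in the range and in the ranks was not tested. The highest 5 over all libraries were MRPS34, MRPL37, MRPS26, MRPL15 and MRPL14. In NS these stood at 170 ± 16.4, 134 ± 4.85, 82.1 ± 9.08, 82.8 ± 14.2 and 73.5 ± 17.9 CPM per kb (SD, n = 3), so MRPS34 was above MRPL37 and the other 3 did not differ beyond their spread. The lowest 5 were MRPS24, MRPL38, MRPL46, MRPS18C and MRPL53, at 0.0878 ± 0.0580, 0.840 ± 0.140, 1.72 ± 0.0733, 2.67 ± 0.272 and 2.67 ± 0.862 CPM per kb. None of the 4 tested among these rose or fell. MRPL53 (mL53), a protein at the stalk, had the widest gap between libraries of a group, with 3.76, 4.65 and 2.35 CPM in NS beside 3.74, 3.49 and 4.03 CPM in shACSS2. Its log2 fold change of 0.07 turned to -0.17 without NS 3 and to -0.02 after correction for GC content and gene length.

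Some members with low values share exon bases with other genes, but members at higher levels do so too. MRPS24, whose protein uS3m lies where messenger RNA enters the small subunit, was covered by 7, 2 and 4 reads in NS and by 3, 2 and 3 reads in shACSS2. It shares 606 exon bases, 23.2% of its exons, with the read-through gene URGCP-MRPS24. MRPL53 shares 45.2% of its exon bases with CCDC142 and MRPL38 shares 37.5% with AC087289.3, both on the same strand. In all, 41 of the 78 members share exon bases with another gene, 16 of them on the same strand, and 12 share over 20%. The largest share is that of MRPL12, 68.2% with AC139530.2 on the same strand. MRPL12 stood at 36.8 ± 6.97 CPM per kb in NS (SD, n = 3), above the members' median of 26.7. MRPL46, among the lowest, shares 11.3%. The sources used here do not give the counting rule for shared bases and strand, so the levels of these genes are uncertain, and the part of shared bases in them was not tested. Of 75 annotated pseudogenes of the family in the table, 13 had counts, with 1126 counts in all, equal to 0.171% of the members' own, and 794 of these belonged to MRPL45P2, a copy of MRPL45.

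Sequence around the gene starts set the family apart by description. RefSeq promoters on GRCh38.p14, 250 bases before to 50 bases after the start, were matched for 69 of the 78 members and searched on both strands. The core of the ETS family site, CCGGAAG, was present in 29 of 69 (42.0%), beside 18.2% of the promoters of tested genes and 10.7% of all promoters. The YY1 site, AAGATG followed directly by GCGG, was present in 13 (18.8%), beside 2.65% and 1.28%. The NRF1 site, GCGCA, any base and GCGC, a motif of many genes for mitochondrial proteins, was in 8 (11.6%) beside 11.3% of tested genes, and the E-box CACGTG, a site of MYC proteins, in 6 (8.70%) beside 10.1%. A TATA box, TATAAA, was in 2 members (2.90%, beside 5.51%). The motifs' shares among the 20 matched members that rose went both ways. The ETS core was in 5 of the 20 (25%), and the median log2 fold change was 0.25 with it and 0.29 without. The YY1 site was in 1 of the 20 (5%), with medians of 0.26 and 0.28. The NRF1 site was in 4 of the 20 (20%) and the E-box in 3 (15%), both with a median of 0.30 with the motif and 0.27 without. The GC box GGGCGG was in 17 of the 20 (85%), in 42 of all 69 members (60.9%) and in 70.5% of tested genes. The windows of 30 bases shown here are the YY1 site of MRPL42, the member with that site that rose, and of 4 members that did not pass the test or were not tested, with the motif in capitals, on the strand of the motif, each running with the gene.
MRPL42 (chr12:93467512-93467541, plus strand): ggattgaaacAAGATGGCGGgttcgtggtg
MRPS18A (chr6:43687763-43687792, minus strand): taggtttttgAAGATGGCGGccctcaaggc
MRPS18B (chr6:30617853-30617882, plus strand): ggcgtacgtcAAGATGGCGGcgtctgtatt
MRPL46 (chr15:88467361-88467390, minus strand): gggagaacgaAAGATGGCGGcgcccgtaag
MRPS24 (chr7:43869479-43869508, minus strand): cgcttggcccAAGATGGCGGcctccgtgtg
The second set is the ETS core, in capitals, of 3 of the 5 members with it that rose, those in which it also runs with the gene.
MRPS31 (chr13:40771204-40771233, minus strand): aaggcgccaggCCGGAAGcggaagagaggg
MRPL43 (chr10:100987497-100987526, minus strand): tcgtcccggaaCCGGAAGcctcgaggttta
MRPL58 (chr17:75012651-75012680, plus strand): ggaagcgcccgCCGGAAGcagtcgcaagac
A match of letters is a description and shows no binding.

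Several members start back to back with another gene. Within 1000 bases, 17 members have such a head-to-head partner, and 14 partners outside the family were tested. Of these 14, 1 rose, 1 fell and 12 did not pass, beside 7.48% and 9.64% of all genes. Their median log2 fold change was 0.00, while the median of the 14 members that face them was 0.28. The partner that rose was TCP1, a subunit of the cytosolic chaperonin, whose start is 63 bases from that of MRPL18. TCP1 was at 462, 513 and 441 CPM in NS and at 659.6, 575 and 554 CPM in shACSS2, and rose by 0.34 on the log2 scale (SE 0.0990, edgeR adjusted p = 0.0295 after Benjamini-Hochberg adjustment), and the call ended without NS 1, NS 3 or shACSS2 2, where the adjusted p reached 0.137. The partner that fell was PNPLA7, whose start is 665 bases from that of MRPL41, with a log2 fold change of -0.83 (SE 0.267, adjusted p = 0.0437). Its call ended without NS 1, NS 3, shACSS2 1 or shACSS2 3, where the adjusted p reached 0.184. MRPL46 and MRPS11, which face each other 34 bases apart, stood at 0.25 (SE 0.136) and 0.30 (SE 0.119) on the log2 scale, and neither passed.

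A pair of related 7-base sequences in the 3′ untranslated region, ATGCTCA and TGCTCAA, had been picked in an earlier look at the fold changes of all these genes, so their relation to fold change is a description and no support. The longest annotated 3′ region of 11 members holds at least 1 of them, on the sense strand. Of these 11 members 2 rose, with a median log2 fold change of 0.15, and of the 66 members whose 3′ region of at least 50 bases holds neither, 65 of them tested, 20 rose, with a median of 0.30. Over all genes tested, 3.15% of the 2381 with either sequence rose, with a median of -0.16, and 9.52% of the 10882 without rose, with a median of 0.05. Of the 5 members with a fold change below 0, MRPL4, MRPL19 and MRPS25 hold one, and the 2 members with one that rose were MRPL35 and MRPL42. Their 30-base windows, written in the sense of the gene with the match in capitals and placed on GRCh38, are as follows.
MRPL4 (chr19:10259623-10259652, plus strand): atgtgcacagcATGCTCAAgcaccagacgc
MRPL19 (chr2:75656134-75656163, plus strand): actgttttttgATGCTCAcagcatgatgaa
MRPS25 (chr3:15050814-15050843, minus strand): ttttacatttgATGCTCAAgtttgattctg
MRPL35 (chr2:86211586-86211615, plus strand): agcccttcagcATGCTCAttcatgaaacag
MRPL42 (chr12:93510573-93510602, plus strand): agggttcctatTGCTCAAcatccctgtcag
The 8 bases that join both sequences are in MRPL4, in MRPS25 and in MRPL34, whose log2 fold change was 0.27 (SE 0.124) and did not pass. The annotated 3′ region of MRPL42 is 14992 bases long, and which form these cells express was not examined.

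The ribosomal RNAs that these proteins bind fell. MT-RNR1, the 12S RNA of the small subunit, was at 793, 668 and 1136 CPM in NS and at 305, 355 and 368 CPM in shACSS2. MT-RNR2, the 16S RNA of the large subunit, was at 2163, 1574 and 3276 CPM in NS and at 758, 1046 and 1034 CPM in shACSS2. Neither gene had overlapping groups, and NS 3 was highest for both, while it was the lowest NS library for most protein members. MT-RNR1 fell by 1.34 on the log2 scale (SE 0.151, edgeR adjusted p = 5.80e-05 after Benjamini-Hochberg adjustment). MT-RNR2 fell by 1.31 (SE 0.259, adjusted p = 0.0138), a call that ended without shACSS2 1 (adjusted p = 0.124), without shACSS2 2 (adjusted p = 0.0589), without a count filter (adjusted p = 0.122) and after correction for GC content and gene length (adjusted p = 0.0700). Genes of the mitochondrial genome took 1.85%, 1.25% and 2.20% of the counts in NS 1 to 3 and 0.692%, 0.751% and 0.775% in shACSS2 1 to 3. With those genes left out of the fit, 22 members rose as before, beside 7.49% of all genes. Fewer mitochondrial genomes and less RNA per genome cannot be told apart in these libraries, and how well the mRNA kit captured mitochondrial ribosomal RNA was not measured.

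Some genes that serve the mitochondrial ribosome rose, and more of them did not pass the test. Of the 5 subunits with names outside the family, DAP3 (mS29), a GTP-binding protein of the small subunit, rose, with 141 ± 5.53 CPM in NS and 174 ± 3.07 CPM in shACSS2 (SD, n = 3) and a log2 fold change of 0.30 (SE 0.0890). With these 5, 23 of 82 subunit and family genes rose. Of 28 assembly factors, 9 rose, none fell and 19 did not pass, with a median log2 fold change of 0.21 and a range from -0.44 to 0.54, beside 7.48% of all genes that rose. Assembly factors that rose numbered 2 without NS 1 (1.87% of all genes), 1 without NS 3 (2.2%) and 4 without shACSS2 2 (4.8%). They numbered 3 without shACSS2 3 (4.99%) and 3 with library totals (4.53%). RPUSD4, a pseudouridine synthase of the 16S RNA, was at 34.2, 36.4 and 34.3 CPM in NS and at 50.8, 50.4 and 50.9 CPM in shACSS2, a rise of 0.54 on the log2 scale (SE 0.0985, edgeR adjusted p = 0.00231 after Benjamini-Hochberg adjustment), and it passed without any single library. MALSU1, which binds MRPL14 and keeps the subunits apart, rose by 0.49 (SE 0.111), MTERF3 by 0.43 (SE 0.127) and MRM3, a methyltransferase of the 16S RNA, by 0.39 (SE 0.107). The call of MALSU1 ended without NS 3 (adjusted p = 0.0536). Those of DAP3, MTERF3 and MRM3 ended without NS 1, NS 3 and shACSS2 3, and those of DAP3 and MRM3 also without shACSS2 2 and that of DAP3 without NS 2, with adjusted p up to 0.171 for DAP3, 0.174 for MTERF3 and 0.101 for MRM3.

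Most translation factors had a log2 fold change above 0, 15 of 19, with a median of 0.27. Of the 19, 7 rose, 2 fell and 10 did not pass. Among all genes tested 7.48% rose and 9.64% fell. PDF, the deformylase that trims new mitochondrial proteins, rose by 0.43 (SE 0.138), the release factor MTRF1L by 0.40 (SE 0.128) and OXA1L, the insertase that receives nascent chains at the inner membrane, by 0.36 (SE 0.0889). GUF1, the homologue of the bacterial elongation factor 4, was at 57.8, 56.1 and 60.9 CPM in NS and at 49.0, 38.3 and 40.5 CPM in shACSS2. It fell by 0.45 (SE 0.111, edgeR adjusted p = 0.0122 after Benjamini-Hochberg adjustment). HEMK1, the methyltransferase of the mitochondrial release factors, fell by 0.48 (SE 0.157). The calls of all 5 ended without NS 1 and without NS 3. No translation factor rose in either fit, beside 1.87% and 2.2% of all genes. The number that rose was 2 without shACSS2 2 (4.8% of all genes), 4 without shACSS2 3 (4.99%) and 1 with library totals (4.53%). Without shACSS2 2 the calls of PDF, MTRF1L and GUF1 ended, and without shACSS2 3 those of GUF1 and HEMK1. Without shACSS2 1 those of PDF, MTRF1L and HEMK1 ended, and without NS 2 that of MTRF1L. In these fits the adjusted p reached 0.185 for PDF, 0.135 for MTRF1L, 0.0835 for OXA1L, 0.0630 for GUF1 and 0.186 for HEMK1.

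**Figure D4:**
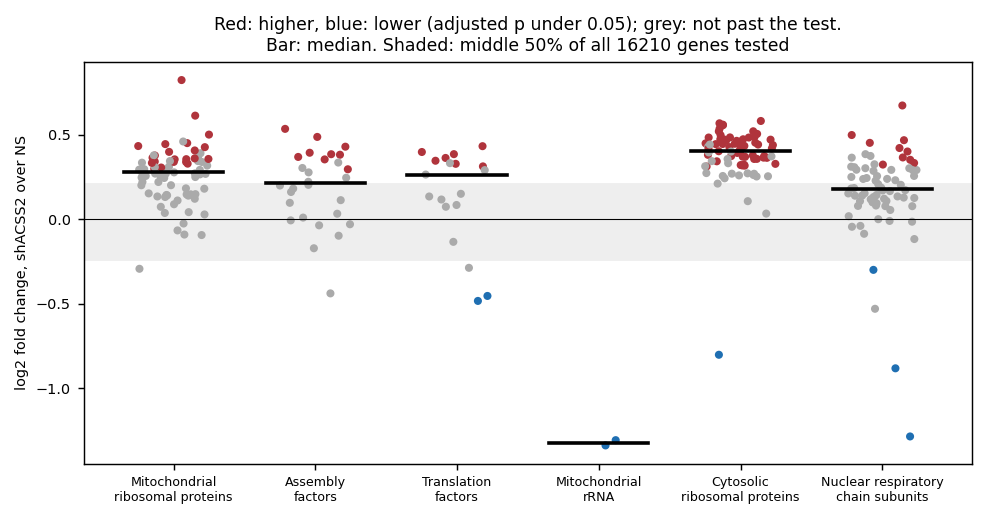
Log2 fold changes of the members and of the comparison lists, 1 point per tested gene (red higher, blue lower, grey not past the test), with a bar at the median of each list and shading over the middle 50% of all genes tested. The members' median of 0.28 lies between those of the nuclear respiratory chain subunits (0.18) and of the cytosolic ribosomal proteins (0.40), and both mitochondrial ribosomal RNAs lie below -1.3.

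Of the 2 families most like it in kind, one had more and one fewer genes higher. Of 79 cytosolic ribosomal protein genes 56 rose (70.9%) and 1 fell, with a median log2 fold change of 0.40. Of 74 tested nuclear genes for respiratory chain and ATP synthase subunits 10 rose (13.5%) and 3 fell, with a median of 0.18. The mitochondrial ribosomal protein genes thus stood between them, with 28.6% higher. These are counts of lists chosen with results known, the differences between lists were not tested, and nothing particular to the family follows from them.

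**Figure D5:**
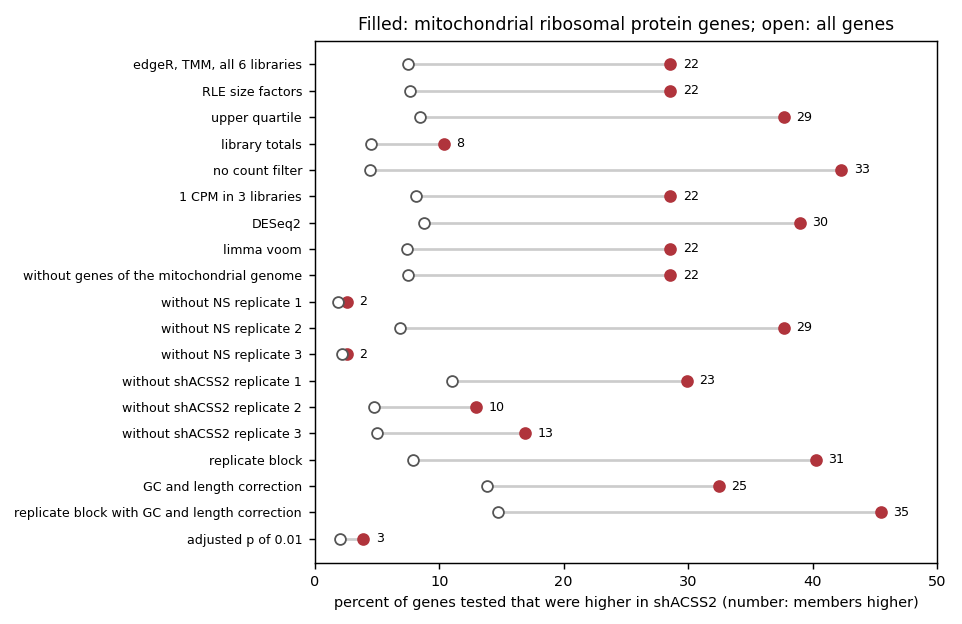
Share of members (filled points) and share of all genes tested (open points) that were higher in shACSS2, in percent, under each setting run. The members' share runs from 2.60% without NS 1 or without NS 3 to 45.5% with the replicate block and the correction for GC content and gene length. Beside the latter stand 14.7% of all genes. The 2.60% are 2 members, near the 1.87% and 2.2% of all genes in those fits. Without a count filter the share of all genes, 4.42%, is taken over 31055 genes.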

How the data were processed

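The authors deposited raw read counts by gene, as whole numbers without normalisation, for the 6 libraries. The submitters' processing notes name hg19, fastp, featureCounts 1.5.0-p3, HISAT2 2.0.5 and a DESeq2 numbered 4.3.1. All gene identifiers were found in GENCODE v29, an annotation of GRCh38, so the build of the alignment is uncertain. The sources used here give neither the strand setting nor the treatment of shared reads.

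The members, lists and tests were chosen with earlier results of these data known. All genes were fitted in edgeR 4.0.16 under R 4.3.3 (TMM, default expression filter, robust quasi-likelihood F test, group only), with Benjamini-Hochberg adjustment over 16210 genes at 0.05. CPM of compared genes are TMM-normalised, and the ranges of marker levels and the floors use library totals. The fit was tested on simulated data, where it recovered 12% of 1.3-fold, 58% of 1.5-fold, 64% of 2-fold and 96% of 3-fold changes. It made 9 false calls in that fit of 15955 genes. The changed genes were drawn at random from all expressed levels and were far fewer than those called in the data. These shares therefore do not give the share recovered among the members. Most changes of 1.3-fold were thus missed there, so a gene that did not pass is not shown to be unchanged. Only genes past it are said to have risen or fallen. Standard errors were obtained by dividing the absolute log2 fold change by the root of F. Levels between genes are CPM per kilobase of the union of GENCODE exons. Library totals ran from 16617885 to 20831599 counts, and 3 counts are 0.144 to 0.181 CPM in a library, which covers counting error only. Library pairs within a group had a chi-square of 4.28 to 17.3 per degree of freedom, which is more than counting error alone. That spread may be technical, so it does not show separate cultures. Each library was treated as a replicate in the fit.

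The genes named are ACSS2, the 12 members with the largest rise, the 5 with the smallest p in each direction, the 5 highest and 5 lowest per kilobase, those not tested, MRPS18A to C, the member with the widest gap within a group, and up to 4 genes past the test from each list. Of the comparison lists, cytosolic ribosomal proteins and respiratory chain subunits are given as counts. Other genes named were added after their values were seen. Some marker genes are not reported here. Alternatives were RLE, upper quartile and library totals scaling, no filter or 1 CPM in 3 libraries, DESeq2 1.42.0, limma 3.58.1 with voom, an adjusted p of 0.01, omission of genes of the mitochondrial genome or of each library, a replicate block, and a correction for GC content and gene length.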

Additional observations from a re-analysis of the deposited data

How the results depend on the processing

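The 22 members called higher became 8 with library totals, 3 at an adjusted p of 0.01 and 2 to 29 when 1 library was left out. The 0 called lower became 1 (MRPL4) with library totals and with DESeq2, and 0 to 1 when 1 library was left out. The 9 assembly factors higher became 3 with library totals, 2 at an adjusted p of 0.01 and 1 to 9 when 1 library was left out. The 7 translation factors higher became 1 with library totals, 0 at an adjusted p of 0.01 and 0 to 5 when 1 library was left out. The 2776 genes called in all became 4314 after correction for GC content and gene length, 1010 at an adjusted p of 0.01 and 1018 to 3931 when 1 library was left out. The members' median log2 fold change stayed between 0.20 and 0.35 in every alternative run. Among members that did not pass, the log2 fold change of MRPL38 ran from -0.19 to 0.036, that of MRPS25 from -0.081 to 0.017 and that of MRPL53 from -0.17 to 0.31 when 1 library was left out, and MRPL53 was at -0.015 after the GC and length correction. The cause of these changes was not tested, apart from the fewer samples of each omission.

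The labels give both groups the replicate numbers 1 to 3. Deviations of same-numbered libraries correlated at -0.04, -0.07 and 0.11 across genes, and not every library correlated best with its own number. These values cannot settle whether the numbers pair the libraries, because the deviations also followed GC content. With the replicate block 31 members were higher, 0 were lower and 2923 genes were called in all. With the block and the GC and length correction 35 members were higher, 1 (MRPL4) was lower and 4535 genes were called.

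With 3 libraries a group, the median standard error of a member's log2 fold change was 0.113, and 19 of the 55 members without a call had an adjusted p under 0.1, so the count of calls moves with small changes of setting. Members with shared exon bases carry the further uncertainty of the counting rule.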
